A study of Mus musculus with 7 samples.

Results

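The 10 genes described here encode the ligands, receptors and intracellular SMAD proteins of transforming growth factor beta (TGF-beta) signalling: Tgfb1, Tgfb2, Tgfb3, Tgfbr1, Tgfbr2, Tgfbr3, Smad2, Smad3, Smad4 and Smad7. They were taken by gene symbol from a table of 21861 rows of read counts, and each symbol was found. The libraries came from the retinal pigment epithelium (RPE) of aged mice, the pigmented layer that supports the photoreceptors. The treatment was an adeno-associated virus (AAV) with GFP as the vector control (3 libraries) or with GSTA4, a glutathione transferase that conjugates lipid aldehydes (4 libraries), and the tissue was taken 12 weeks later. The labels used here give no strain, sex, exact age, promoter, serotype or dose, and do not say whether a library is 1 eye, 1 animal or a pool, so p-values measure the spread between these libraries. Values are given in replicate order, and fold changes are of AAV-GSTA4 against AAV-GFP.

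TGF-beta ligands are secreted in a latent complex and are released by proteases, thrombospondin or integrins. The active ligand binds the type II receptor (Tgfbr2), which recruits and phosphorylates the type I receptor (Tgfbr1). Betaglycan (Tgfbr3) is a coreceptor that binds TGF-beta2 in particular and helps present it to the signalling receptors. The type I receptor phosphorylates SMAD2 and SMAD3, these enter the nucleus with SMAD4, and SMAD7 inhibits the receptor as a feedback product. In the eye TGF-beta2 is known as the prominent isoform, and in the RPE the pathway is known for driving epithelial-mesenchymal transition and scarring.

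The libraries held 15329181 to 28998964 counts, so 3 counts, the detection floor used here, corresponded to 0.111 to 0.176 CPM (read counts scaled to library size with edgeR's trimmed-mean factors, TMM). The transgene row hGSTA4 had 1 to 3 counts in AAV-GFP and 4209, 5239, 45 and 1184 counts in AAV-GSTA4. The GFP row d2EGFP had 99, 3970 and 2361 counts in AAV-GFP and 163, 64, 7 and 26 in AAV-GSTA4, so the library labelled AAV-GFP replicate 1 lay within the range of the other group. AAV-GFP replicate 3 stood apart, with a mean correlation of log2 CPM to the other libraries of 0.838 against 0.910 to 0.926 for the other 6. All 13 RPE markers checked were detected in every library, at a summed 22977 to 71011 CPM in AAV-GFP and 61158 to 110387 CPM in AAV-GSTA4, overlapping ranges. Of the 13, 3 (Lrat, Rdh5 and Otx2) lay above every AAV-GFP library in each AAV-GSTA4 library. Tyrp1 and Pmel had log2 fold changes of -0.47 and -0.70, the rest had positive ones, and all of these overlapped. All 12 rod markers were also detected in every library, at 13030 to 39095 CPM against 7034 to 13117 CPM, with 7 of the 12 lower and not overlapping. Inner-retinal neuron markers, 12 in number, summed to 949 to 1184 CPM against 571 to 883 CPM. Of these, 3 (Pcp2, Slc17a6 and Rbpms) lay lower without overlap. Slc6a9 had a log2 fold change of 0.89 and the rest negative ones. Abundant Trpm1 read 332 to 549 CPM against 175 to 449 CPM, and Slc6a9 80.2 to 126 CPM against 79.3 to 268 CPM. Markers of Müller glia and astrocytes, a list that shares Rlbp1 with the RPE, summed to 6270 to 8951 CPM against 9842 to 14578 CPM. Of these 8 glial markers Apoe alone lay higher without overlap, Apoe and Rlbp1 made up most of the sum, and Slc1a3, Aqp4, Kcnj10 and Dkk3 had log2 fold changes of -1.43, -0.85, -0.85 and -0.33. Summed levels of the remaining 10 marker lists overlapped between the groups.

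Of all genes in the data, 0 of 15075 genes tested, or 0% of them, reached an adjusted p-value of 0.05 (edgeR quasi-likelihood test, Benjamini-Hochberg), and 0 of the 9 tested TGF-beta genes did (Tgfb1 was too low to be tested). At an unadjusted p under 0.05 there were 1794 genes, 11.9% of those tested, and 1 of the 9, Tgfbr3. The groups did not overlap for 12.0% of all genes, 6.44% higher and 5.61% lower in AAV-GSTA4, and for the same 1 of the 9. These shares over the 9 are near the background. The median fold change of the 9 was 0.23 on the log2 scale, with 6 above 0, against -0.071 over all genes. With library totals in place of TMM both medians were lower, -0.090 and -0.37, and 4 of the 9 were above 0. In these bulk samples fewer cells of a type and less RNA per cell cannot be told apart.

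**Figure D1:**
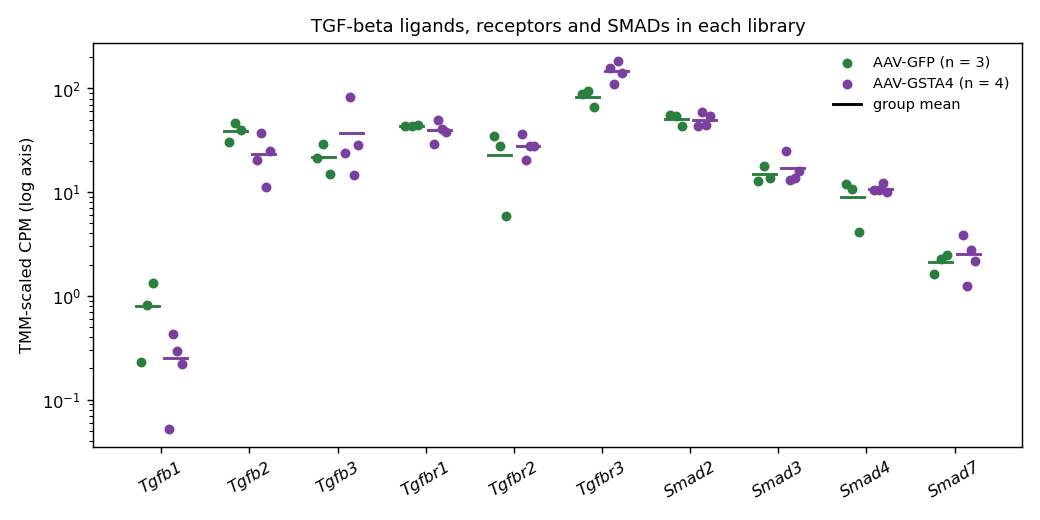
TMM-scaled CPM (log axis) of the 10 genes in each library, with AAV-GFP in green, AAV-GSTA4 in purple and a bar at each group mean. Tgfb1 and Smad7 lie lowest, and Tgfbr3 is the gene whose groups do not overlap.

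The upstream sequences of Tgfb2 and Tgfb1 are shown because they are the ligands with a window in the table, Tgfb2 being the ligand whose ratio to Tgfb3 is given after them and Tgfb1 the one near the detection floor. Each is the 250 bases before the RefSeq transcription start on GRCm38.p6, read 5′ to 3′ on the gene's strand, at chr1:186705990-186706239 (minus strand) for Tgfb2 and chr7:25686752-25687001 (plus strand) for Tgfb1. Capitals mark a match on either strand to the SMAD half-site CAGAC, the TATA box TATAAA or the GC box GGGCGG.
Tgfb2: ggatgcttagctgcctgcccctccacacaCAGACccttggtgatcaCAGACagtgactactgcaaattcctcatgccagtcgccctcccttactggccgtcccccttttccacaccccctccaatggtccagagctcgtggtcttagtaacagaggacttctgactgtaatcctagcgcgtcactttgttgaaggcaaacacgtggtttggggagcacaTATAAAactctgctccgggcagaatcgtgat
Tgfb1: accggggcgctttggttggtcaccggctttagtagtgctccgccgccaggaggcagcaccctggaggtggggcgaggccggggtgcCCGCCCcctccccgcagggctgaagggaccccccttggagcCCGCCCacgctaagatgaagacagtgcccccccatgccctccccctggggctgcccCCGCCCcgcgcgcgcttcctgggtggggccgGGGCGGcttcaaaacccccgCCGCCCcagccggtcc
The Tgfb2 window held TATAAA 31 bases before the start and CAGAC at 204 and 221 bases. The Tgfb1 window held 5 GC boxes and neither of the other marked motifs, with a GC content of 75.2% against 53.6% for Tgfb2. The cyclic AMP response element TGACGTCA was also searched for, and neither window held it. Among 32851 RefSeq windows of the same length, 42.2% held CAGAC, 12.4% TATAAA, 32.7% GGGCGG and 1.55% TGACGTCA, on either strand. The marked motifs did not overlap each other in the windows shown. The table also held windows for Tgfbr1, Tgfbr2 and Smad3, 5 of the 10 genes in all. These matches are a description of the letters.

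Tgfb1, the ligand best known from immune cells and platelets (chr7:25687002-25705077, plus strand), was close to the detection floor. It had 5, 21 and 28 counts in the AAV-GFP libraries and 1, 9, 5 and 6 counts across AAV-GSTA4. These were 0.233, 0.811 and 1.34 CPM and then 0.0526, 0.432, 0.294 and 0.221 CPM. The groups overlapped, because AAV-GFP replicate 1 lay within the range of AAV-GSTA4, and the highest value was that of AAV-GFP replicate 3. The expression filter removed the gene, and without the filter edgeR gave -1.61 ± 1.31 (SE, n = 3 and 4) on the log2 scale and an adjusted p of 0.634. A difference was not detected at these counts. The longest coding transcript of Tgfb1 had the highest GC content of the 10 genes, 62.5%. Smad7 followed at 56.9%, while the other 8 lay between 41.0% and 53.1%. A relation of GC content to level was not tested.

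Tgfb2 (chr1:186622792-186705989, minus strand) read 30.6, 46.6 and 39.5 CPM in the AAV-GFP libraries. The 4 AAV-GSTA4 libraries read 20.5, 37.1, 11.3 and 24.9 CPM. Replicate 2 of AAV-GSTA4 overlapped the AAV-GFP range and the other 3 lay below it. Group means were 38.9 CPM ± 8.02 (SD, n = 3) and 23.5 CPM ± 10.7 (SD, n = 4). In log2 terms the change was -0.73 ± 0.36 (SE; 95% interval -1.54 to 0.084), and edgeR's adjusted p was 0.456.

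Tgfb3 (chr12:86056745-86079041, minus strand), the third isoform, read 21.3, 29.3 and 14.9 CPM in AAV-GFP and 24.1, 83.3, 14.5 and 28.5 CPM in AAV-GSTA4. AAV-GSTA4 replicate 2 was far above every other library, and the remaining 6 overlapped. In log2 terms the change was 0.78 ± 0.54 (SE), and edgeR's adjusted p was 0.580. It was 0.042 without AAV-GSTA4 replicate 2, and 0.58 to 1.07 when each other library was left out in turn. Lens fibre markers, 8 in number, summed to 77305 CPM in AAV-GSTA4 replicate 2 against 1489 to 13388 CPM in the other libraries, and their part in the Tgfb3 level was not tested.

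The balance of the ligands was compared as a ratio of counts within a library, which does not depend on the scaling between libraries. The log2 ratio of Tgfb2 to Tgfb3 was 0.52, 0.67 and 1.40 in the AAV-GFP libraries, so Tgfb2 had more counts in each. It was -0.23, -1.16, -0.36 and -0.19 across AAV-GSTA4, so Tgfb3 had more counts in each. Counts are not corrected for gene length, and the exonic length was 5.791 kb for Tgfb2 against 3.383 kb for Tgfb3. Which ligand is ahead in a library therefore depends on the scale, while the difference between the groups does not. Group means of the log2 ratio were 0.86 ± 0.47 (SD, n = 3) and -0.49 ± 0.46 (SD, n = 4), a difference of -1.35 with no overlap. The exact permutation test, two-sided over 35 relabellings, gave p = 0.0286, as small as 3 against 4 libraries can reach, and 0.2 after adjustment over the 7 ratios computed. It is therefore not past the threshold.

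**Figure D2:**
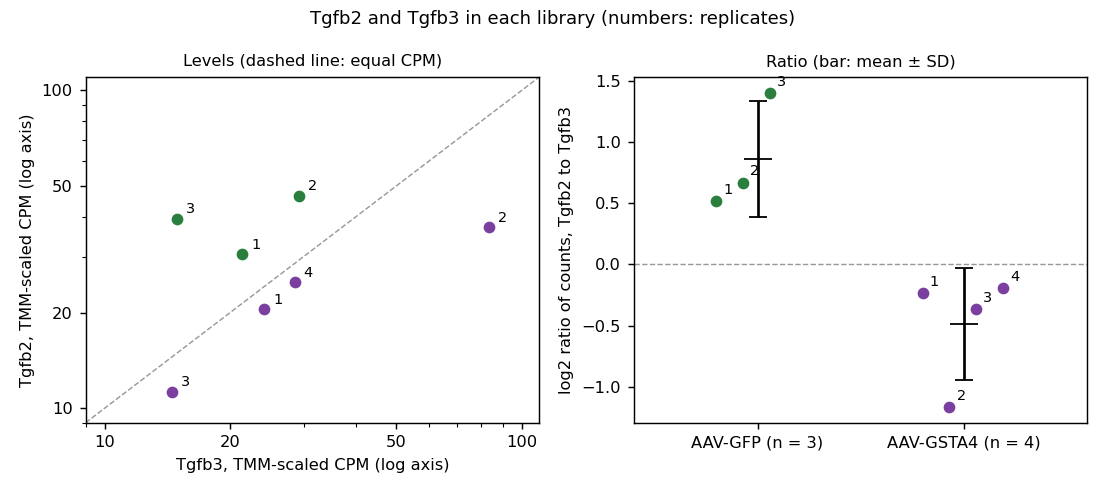
Left, Tgfb2 against Tgfb3 in TMM-scaled CPM (log axes) with replicate numbers; right, the log2 ratio of their counts in each library with mean ± SD. The 3 AAV-GFP libraries (green) lie above equal CPM, between 0.52 and 1.40, and the 4 AAV-GSTA4 libraries (purple) below it, between -1.16 and -0.19.

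As a share of Tgfb2 plus Tgfb3 counts, Tgfb2 took 58.9% (95% Wilson interval 55.97% to 61.7%), 61.4% (59.2% to 63.5%) and 72.6% (69.9% to 75.1%) in the AAV-GFP libraries. In AAV-GSTA4 it took 46.0% (42.7% to 49.4%), 30.8% (29.1% to 32.7%), 43.7% (39.2% to 48.4%) and 46.7% (44.1% to 49.2%). The intervals of the 2 groups did not overlap, and they cover counting error only. The difference in log2 ratio was -1.08 to -1.52 when each library was left out in turn. Y-linked genes were high in AAV-GFP replicate 1 and AAV-GSTA4 replicates 3 and 4 and near 0 in the others, and their part in the values was not tested. Per kilobase of exonic length Tgfb2 made up 50.8% ± 7.46 (SD, n = 3) of the ligand level under AAV-GFP, against 29.6% ± 6.12 (SD, n = 4) under AAV-GSTA4. In the AAV-GFP libraries Tgfb2 took 45.4%, 47.7% and 59.3%, and Tgfb3 54.2%, 51.4% and 38.4%. On this scale Tgfb3 was thus ahead in AAV-GFP replicates 1 and 2 and in each AAV-GSTA4 library. Tgfb1 made up no more than 2.32% in any library. The exonic length used for Tgfb1 was 5042 bases, against 2175 in its longest coding transcript, so its share may be understated. The lowest Tgfb2 share, 20.6%, was in AAV-GSTA4 replicate 2, the library with the high lens markers, and the highest, 59.3%, in AAV-GFP replicate 3, the library that stood apart.

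Tgfbr3, the betaglycan coreceptor (chr5:107106570-107289629, minus strand), read 88.7, 95.5 and 66.4 CPM in the AAV-GFP libraries. The 4 AAV-GSTA4 libraries read 158, 109.8, 184 and 142 CPM, all above every AAV-GFP library. The share of all tested genes with this pattern, higher without overlap, was 6.44%. Group means were 83.5 CPM ± 15.2 (SD, n = 3) and 148 CPM ± 30.9 (SD, n = 4), and the fitted fold was 1.77. In log2 terms the change was 0.83 ± 0.25 (SE), with a 95% interval of 0.27 to 1.38, an unadjusted p of 0.00775 and an adjusted p of 0.363 in edgeR's test. By exact permutation of the libraries (two-sided), p was 0.0571. The difference was larger than the spread of the replicates and did not pass the adjusted threshold. It kept its direction in every alternative run, at 0.55 to 0.96 on the log2 scale, and the lowest adjusted p was 0.0699 in DESeq2. Without the library labelled AAV-GFP replicate 1, which had few GFP counts, it was 0.88.

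Tgfbr3 was highest where the RPE markers were highest, AAV-GSTA4 replicate 3 at 110387 CPM of markers. It was lowest where they were lowest, AAV-GFP replicate 3 at 22977 CPM. Between these the orders differed: AAV-GFP replicate 1 had more RPE markers than AAV-GSTA4 replicate 2 (71011 against 61158 CPM) and less Tgfbr3, and AAV-GSTA4 replicate 4 had more markers than replicate 1 (90862 against 82169 CPM) and less Tgfbr3. Per 1000 CPM of RPE markers Tgfbr3 read 1.25, 1.72 and 2.89 in the AAV-GFP libraries and 1.92, 1.80, 1.66 and 1.56 across AAV-GSTA4. On that scale, chosen after the values were seen, the groups overlapped. The scale follows mainly Rgr, which made up most of the marker sum in every library. Rgr read 12273 to 37709 CPM in AAV-GFP and 34371 to 61493 CPM in AAV-GSTA4. Across AAV-GSTA4 the hGSTA4 level was 222, 251, 2.64 and 43.7 CPM, beside Tgfbr3 at 158, 109.8, 184 and 142 CPM. Within this group replicate 3 had the lowest hGSTA4 and the highest Tgfbr3, and replicate 2 the reverse. Replicate 1 had more of both than replicate 4. These values were set side by side after they were seen, and a relation was not tested.

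The type I receptor Tgfbr1 (chr4:47353222-47414931, plus strand) was the steadiest of the receptors in AAV-GFP, at 43.7, 43.8 and 44.2 CPM. AAV-GSTA4 read 29.1, 50.05, 40.4 and 38.1 CPM, on both sides of the AAV-GFP values. Its log2 fold change was -0.16 ± 0.22 (SE), with a 95% interval of -0.65 to 0.34 and an adjusted p of 0.805 in edgeR's test. The type II receptor Tgfbr2 (chr9:116084293-116175360, minus strand) read 34.9, 27.9 and 5.95 CPM in AAV-GFP and 36.2, 20.4, 27.9 and 27.6 CPM in AAV-GSTA4. The groups overlapped, with the low value in AAV-GFP replicate 3, the library with the lowest RPE and highest rod markers (39095 CPM); their part in it was not tested. The log2 fold change of 0.29 ± 0.49 (SE), adjusted p 0.842 in edgeR's test, became -0.16 without that library. Neither receptor ratio differed beyond the spread: the difference in log2 ratio was -0.79 for Tgfbr1 to Tgfbr2 (exact permutation p = 0.429) and 0.21 for Tgfbr3 to Tgfbr2 (exact permutation p = 0.743), both two-sided, with adjusted values of 0.75 and 0.857 over the 7 ratios.

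**Figure D3:**
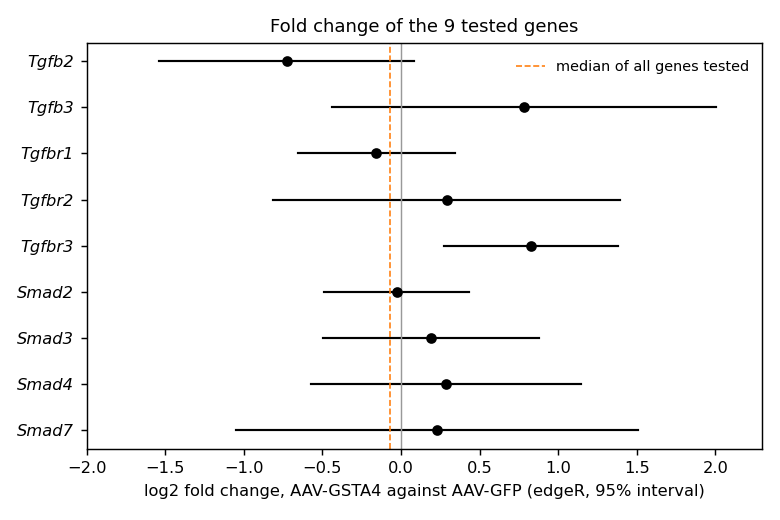
Log2 fold change of the 9 tested genes (points) with 95% intervals (lines) from the edgeR fit, and the median of all genes tested (dashed). The interval of Tgfbr3, 0.27 to 1.38, is the one that does not include 0, before adjustment.

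Among the SMADs, the receptor-regulated Smad2 varied least. It read 55.4, 53.7 and 43.8 CPM in AAV-GFP and 43.3, 59.0, 44.3 and 53.7 CPM in AAV-GSTA4, with full overlap. Its log2 fold change was -0.026 ± 0.21 (SE), and its 95% interval of -0.49 to 0.44 bounds the difference. Smad3 (chr9:63646767-63757994, minus strand), which unlike the main form of SMAD2 binds DNA directly, read 12.9, 18.03 and 13.7 CPM in AAV-GFP and 25.1, 13.1, 13.7 and 16.01 CPM in AAV-GSTA4. AAV-GSTA4 replicate 1 was the highest, and the other 3 lay within the AAV-GFP range. The ratio of Smad3 to Smad2 differed by 0.19 on the log2 scale (exact permutation p = 0.857, two-sided, adjusted 0.857).

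Smad4, the common partner of the signalling SMADs, read 11.9, 10.7 and 4.13 CPM in AAV-GFP and 10.5, 10.4, 12.3 and 10.1 CPM in AAV-GSTA4. As for Tgfbr2, the low value was that of AAV-GFP replicate 3, and the other 6 libraries lay between 10.1 and 12.3 CPM. The inhibitor Smad7 had 26 to 73 counts in a library, or 1.63, 2.28 and 2.50 CPM in AAV-GFP and 3.84, 1.25, 2.76 and 2.18 CPM in AAV-GSTA4. The AAV-GSTA4 values surrounded those of AAV-GFP. The log2 fold changes of Smad3, Smad4 and Smad7 were 0.19 ± 0.31, 0.28 ± 0.38 and 0.23 ± 0.57 (SE), and the adjusted p-values of the 4 SMADs were 0.793 to 0.975 in edgeR's test. The interval of Smad7, -1.05 to 1.51, is wide, and the log2 ratio of Smad7 to Smad4 differed by -0.28 (exact permutation p = 0.6, two-sided, adjusted 0.84). Smad2, Smad4 and Smad7 lie on chromosome 18.

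Levels of different genes were compared as CPM per kilobase of exonic length in the GENCODE M21 models, which may differ from the authors' annotation. Averaged over the 7 libraries the order was Tgfbr3 at 18.4, Tgfb3 at 9.12, Tgfbr1 at 6.33, Smad2 at 5.75, Tgfb2 at 5.19, Tgfbr2 at 3.15, Smad3 at 2.90, Smad4 at 2.69, Smad7 at 0.519 and Tgfb1 at 0.0960. Tgfbr3 lay above Tgfb3 in 6 of 7 libraries, the exception being AAV-GSTA4 replicate 2. From Tgfb3 to Smad4 each neighbour lay above the next in 4 or 5 of 7 libraries, so their order was not settled. Smad4 above Smad7 and Smad7 above Tgfb1 held in 7 of 7. In M21 no exon of these genes overlapped another gene annotated as coding. Tgfb2, Tgfb3 and Tgfbr3 had 2.14%, 12.4% and 4.54% of their exonic length shared with models not annotated as coding.

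Profiles over the 7 libraries were compared by their distance. Among the 10, Tgfbr1 and Smad2 were closest, with a root-mean-square distance of 0.19 between their mean-centred log2 CPM, and Tgfbr2 and Smad4 were at 0.39. Both members of the first pair varied little, with a distance from their own mean of 0.23 for Tgfbr1 and 0.17 for Smad2. Of the 9462 more abundant genes (mean log2 CPM 3 or above), the nearest to Tgfbr3 were Alad, Ppp5c and Lgals3bp at 0.062 to 0.081. The nearest to Tgfb2 were Plekha1, Otx1 and Pdlim4 at 0.20 to 0.23. The nearest to Tgfb3 were Gstm1, Gpd1 and Col6a3 at 0.15 to 0.28. For Tgfbr2 they were Med11, Fahd2a and Ramp2 at 0.18 to 0.22, and for Tgfbr1 Ash1l, Gmpr2 and Memo1 at 0.077 to 0.088. Among the SMADs, Smad2 was nearest to Pafah1b3, Capzb and Eif1ax (0.069 to 0.080) and Smad3 to B4galt1, Pygb and Nrbp2 (0.10 to 0.13). Smad4 was nearest to Psmd14, Mvk and Pole4 (0.099 to 0.11) and Smad7 to Dvl3, Vars2 and Slc35c1 (0.074 to 0.13). Tgfb1, at few counts, had no neighbour closer than 0.35 (Zan, Sntg2 and Ccn4, to 0.40).

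The genes that hold and release the latent ligand were described from a list of 22, all of them tested. Of these 0 reached an adjusted p of 0.05 with edgeR. At an unadjusted p under 0.05, 3 were higher and 1 lower, against 5.27% and 6.63% of all genes. Without overlap 4 lay higher and 1 lower, against 6.44% and 5.61% of all genes. The list's median log2 fold change was 0.096, and -0.20 with library totals. Thbs1, thrombospondin-1, which activates latent TGF-beta, read 232, 337 and 227 CPM in AAV-GFP and 604, 519, 849 and 583 CPM in AAV-GSTA4. Every AAV-GSTA4 library lay above every AAV-GFP library. Within AAV-GSTA4, replicate 3 had the lowest hGSTA4 (2.64 CPM) and the highest Thbs1, and replicate 2 the reverse (hGSTA4 251 CPM). Replicate 1 had more of both than replicate 4, and a relation was not tested. The log2 fold change of Thbs1 was 1.27 ± 0.28 (SE), the unadjusted p 0.00135 and the adjusted p 0.363 in edgeR's test. With DESeq2 it was 1.29 with an adjusted p of 0.00635. Thbs1 was the 1 gene DESeq2 called among the lists described here (1.31% of 12656 genes with an adjusted p were called).

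Itgb8, the beta subunit of the integrin αvβ8 that releases latent TGF-beta, read 2096, 1434 and 469 CPM in AAV-GFP and 2647, 2339, 3403 and 2327 CPM in AAV-GSTA4. The groups did not overlap, and the log2 fold change was 1.01 ± 0.47 (SE), adjusted p 0.432 in edgeR's test. It was 0.61 without AAV-GFP replicate 3. Itgav, its partner subunit, read 168, 132 and 79.0 CPM against 220, 139.97, 299.7 and 168 CPM and overlapped, with a log2 fold change of 0.71 ± 0.34 (SE). Itgb6, the other main activating integrin subunit, read 5.67 to 10.3 CPM against 11.2 to 24.4 CPM, and Fbn1, the fibrillin that anchors the latent complex, 19.8 to 40.5 CPM against 45.3 to 70.3 CPM. Their log2 fold changes were 1.06 ± 0.35 and 0.82 ± 0.29 (SE). The membrane protease Mmp14 was on the other side, at 10.6 to 13.003 CPM in AAV-GFP and 3.70 to 8.19 CPM in AAV-GSTA4, a log2 fold change of -0.89 ± 0.34 (SE). The adjusted p of these 3 genes was 0.363 to 0.380 in edgeR's test. Per 1000 CPM of RPE markers the groups overlapped for Thbs1 (3.27 to 9.88 against 6.42 to 8.49), Itgb8 (20.4 to 29.5 against 25.6 to 38.3), Itgb6 and Fbn1. For Thbs1 the overlap rested on AAV-GFP replicate 3, the library that stood apart, at 9.88, while AAV-GFP replicates 1 and 2 were at 3.27 and 6.08.

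**Figure D4:**
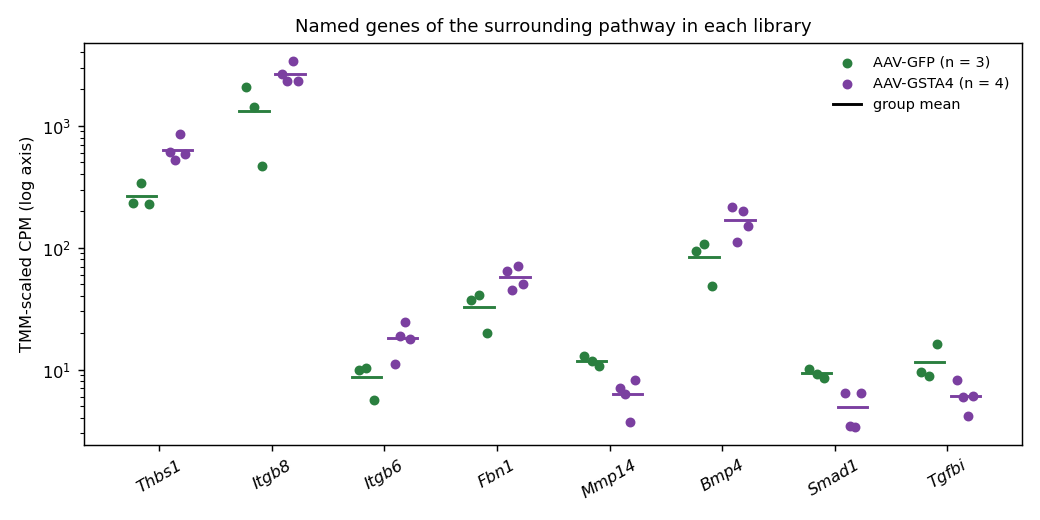
TMM-scaled CPM (log axis) of 8 genes of the surrounding pathway in each library, AAV-GFP in green and AAV-GSTA4 in purple, with group means as bars. The genes were drawn for an unadjusted p under 0.05 in edgeR's test and no overlap, except Itgb8, whose p was 0.0575. The lack of overlap was thus set by the choice, and 12.0% of all genes showed it. Thbs1, Itgb8, Itgb6, Fbn1 and Bmp4 are higher in AAV-GSTA4, and Mmp14, Smad1 and Tgfbi lower. Of them 0 reach an adjusted p of 0.05 with edgeR. Skil, Strap, Ski and Inhbb also did not overlap and are not drawn.

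The bone morphogenetic protein (BMP) and activin branch shares SMAD4 with TGF-beta. Of 16 ligands 12 were tested and 0 passed. At an unadjusted p under 0.05, which 5.27% of all genes passed higher and 6.63% lower, 2 were higher and 2 lower. These were Bmp4 and Gdf11, and Bmp3 and Inha, of which Gdf11, Bmp3 and Inha overlapped and were named after their values were seen. Bmp4 read 93.1, 108 and 48.5 CPM in AAV-GFP and 214, 111, 201 and 152 CPM in AAV-GSTA4, without overlap, a log2 fold change of 1.03 ± 0.34 (SE) with an adjusted p of 0.363 in edgeR's test. Per 1000 CPM of RPE markers it was 1.31 to 2.11 and 1.67 to 2.60, and overlapped. Bmp2 and Bmp7, the other abundant ligands of the list, had log2 fold changes of 0.43 ± 0.40 and 0.28 ± 0.25 (SE) and overlapped.

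Of 14 BMP and activin receptors and SMADs, 0 passed and, against 11.9% of all genes, 1 had an unadjusted p under 0.05. That was Smad1, a BMP-regulated SMAD, at 8.60 to 10.1 CPM in AAV-GFP and 3.41 to 6.38 CPM in AAV-GSTA4, a log2 fold change of -0.92 ± 0.37 (SE) and an adjusted p of 0.388 in edgeR's test. Without AAV-GSTA4 replicate 2 it was no longer past an unadjusted 0.05, at -0.78. Its close relative Smad5 read 32.2 to 42.8 CPM and 32.9 to 53.4 CPM, a log2 fold change of 0.10 ± 0.24 (SE). The receptors Bmpr1a and Bmpr2 were at -0.17 ± 0.21 and 0.080 ± 0.31 (SE). The BMP target genes Id1, Id2 and Id3 were at -0.18 ± 0.37, 0.17 ± 0.41 and -0.34 ± 0.28 (SE), and 0 of the 7 targets tested had an unadjusted p under 0.05.

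Of 25 TGF-beta target genes 24 were tested. The median log2 fold change was -0.25, with 9 above 0 (37.5%) and 15 below, against a median of -0.071 and 44.6% above 0 over all genes, and 0 passed. With library totals 5 were above 0 and 19 below, and the medians were -0.63 for the list and -0.37 for all genes. Ccn2, the connective tissue growth factor, read 33.6, 48.9 and 35.01 CPM in AAV-GFP and 33.6, 42.0, 36.9 and 32.9 CPM in AAV-GSTA4. The groups overlapped, and its log2 fold change was -0.11 ± 0.22 (SE). Tgfbi, a secreted matrix protein named for its induction by TGF-beta, was at 9.51, 8.92 and 16.2 CPM in AAV-GFP and 8.21, 5.90, 4.17 and 6.01 CPM in AAV-GSTA4. It was the 1 gene of this list with an unadjusted p under 0.05, at -0.92 ± 0.36 (SE) on the log2 scale and an adjusted p of 0.383 in edgeR's test. Without AAV-GFP replicate 3 it was at -0.60 and not past an unadjusted 0.05. The mesenchymal genes Acta2 and Vim were at 0.36 ± 0.33 and 0.35 ± 0.40 (SE), and both overlapped.

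Of 27 inhibitors and regulators of the pathway 26 were tested, 0 passed, and 1 had an unadjusted p under 0.05, against 11.9% of all genes. That gene was Usp9x, at 0.53 ± 0.23 (SE) on the log2 scale, overlapping and named after its value was seen. Without overlap 2 lay higher and 1 lower, against 6.44% and 5.61% of all genes. These were Skil and Strap, at 0.76 ± 0.35 and 0.38 ± 0.21 (SE), and Ski, at -0.66 ± 0.34 (SE), also named after their values were seen. The most abundant of the list, Dcn (decorin, which binds TGF-beta), Hspa5 (a chaperone) and Fkbp1a (which binds the type I receptor), had log2 fold changes of -0.58 ± 0.53, 0.43 ± 0.28 and 0.028 ± 0.23 (SE) and overlapped. Without AAV-GFP replicate 3, AAV-GSTA4 replicate 2 or both, chosen after the values were seen, 0 genes of any list passed, and Tgfbr3 was past an unadjusted 0.05 each time. Without both, the genes of the latent complex past it were 6 higher and 1 lower, of 21 tested, against 3 and 1 of 22 with all libraries. Over all genes the counts were 1323 higher and 965 lower of 15030, against 795 and 999 of 15075, so higher calls became more frequent there too. Tgfb2 was past an unadjusted 0.05 in 6 of its 16 alternatives, among them those with library totals, with limma-voom, with either replicate block and without AAV-GSTA4 replicate 2. Without both libraries it was at -1.03 ± 0.34 (SE) with an adjusted p of 0.223 in edgeR's test.

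**Figure D5:**
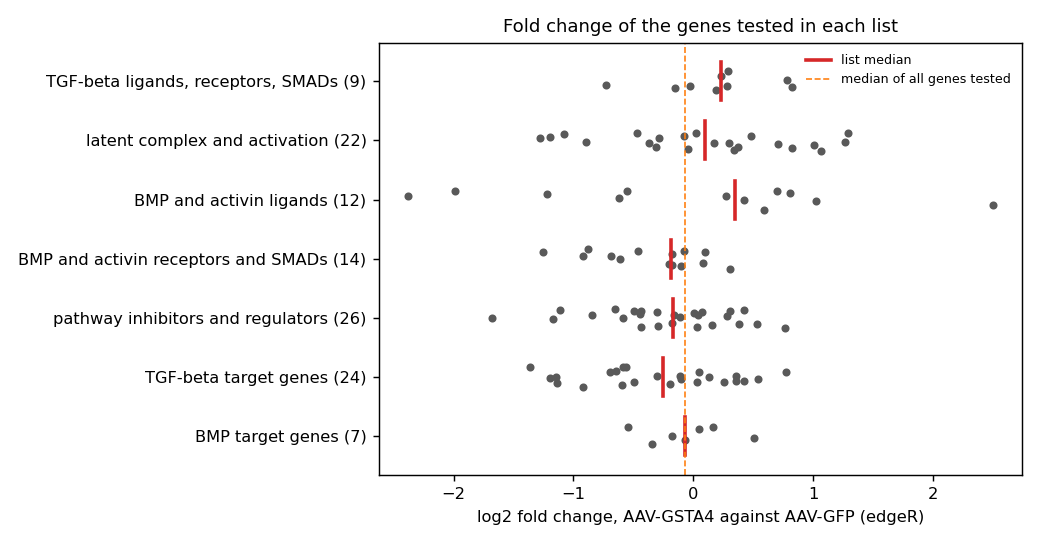
Log2 fold change of each tested gene in the 7 lists, 1 point per gene, with the list median (red bar) and the median of all genes tested (dashed line). The medians run from -0.25 for the TGF-beta target genes to 0.35 for the BMP and activin ligands.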

How the data were processed

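RNA-seq libraries of aged mouse RPE, 3 AAV-GFP and 4 AAV-GSTA4, were analysed. The authors deposited raw read counts per gene symbol. STAR 2.7.1a, featureCounts 1.6.2 and the builds GRCm38 (mm10) and GRCh38 (hg38) are listed in the submitters' processing notes. The annotation release, strand setting and multi-mapping rule are not given in the sources used here. Full-length cDNA was amplified by template switching, per the labels' protocols, with no molecular identifiers mentioned. Columns were matched by library name; replicates follow the titles.

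Counts were tested with edgeR 4.0.16 in R 4.3.3 (quasi-likelihood, robust, TMM, default filter, group as the factor), with Benjamini-Hochberg adjustment over all genes and a threshold of 0.05. SE is the fold change over the square root of F. Log2 CPM used a prior count of 2, ratios a pseudocount of 0.5. Single values were compared by exact permutation. Repeated symbols (24) kept their rows. The fit was tested on simulated data. The genes and lists (6 further lists, 112 genes, and 14 marker lists) were chosen with earlier results of these data known. Named were all 10 genes, the 3 most abundant of each list, those with an unadjusted p under 0.05 and no overlap, and the 3 nearest profiles of each of the 10. Same-numbered libraries were not from a stated common source, so no block was used. Alternatives used DESeq2 1.42.0 with default settings on the same genes, limma 3.58.1 (voom), other scalings, filters and blocks, and libraries left out.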

Additional observations from a re-analysis of the deposited data

Results flagged for a closer look

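The Smad4 level of AAV-GSTA4 replicate 3, 12.3 CPM, lay apart from the other 3 libraries of its group, at 10.1 to 10.5 CPM, a gap that was 0.837 of the whole range, where 0.829 is the critical value for 4 samples. It was 1 of 17 sets of values examined, and chance flags about 5% of them. The gap in CPM was small, and AAV-GFP replicates 1 and 2 were at 11.9 and 10.7 CPM.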

How the results depend on the processing

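Genes with an adjusted p under 0.05 numbered 0 with the other scalings and filters and limma-voom, 166 with DESeq2, 1 with either replicate block, and 0 to 1 with a library left out; the cause was not tested. The number of the 9 tested TGF-beta genes past it was 0 in each of the 15 alternatives. Tgfbr3, Tgfb2, Tgfb3, Tgfbr1 and the 3 ratios among ligands kept their direction in every alternative apart from Tgfb3 when 2 libraries were left out together, and Thbs1 passed with DESeq2 at 1.29.

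Signs of small changes turned, and the cause was not tested. With library totals, which moved the median of all genes by -0.30, Smad3 was -0.092, Smad7 -0.090, Bmp7 -0.0095, Bmpr2 -0.17, Smad5 -0.23, Fkbp1a -0.25 and Id2 -0.051. With limma-voom Tgfbr2 was -0.00028, Smad3 -0.031, Bmpr2 -0.15, Fkbp1a -0.20, Vim -0.19 and Id2 -0.00402. Genes at an unadjusted p under 0.05 were 44.3% higher with TMM and 11.1% with library totals. With medians the Smad3 to Smad2 ratio differed by -0.046 and Smad7 to Smad4 by 0.039. Without AAV-GFP replicate 3 and AAV-GSTA4 replicate 2, chosen after seeing the data, Tgfb3 was -0.18, Tgfbr2 -0.034 and Smad4 -0.032.
With each library left out in turn, and those 2 together where run, the ranges were Smad2 -0.21 to 0.058, Bmpr1a -0.25 to 0.0016, Dcn -1.02 to 0.044, Ccn2 -0.20 to 0.088, Id1 -0.46 to 0.29, Tgfbr2 -0.16 to 0.72, Smad4 -0.055 to 0.55, Bmpr2 -0.19 to 0.28, Fkbp1a -0.095 to 0.15, Id2 -0.22 to 0.43, Smad3 -0.041 to 0.36, Smad7 -0.033 to 0.58, Smad5 -0.077 to 0.24, Vim -0.073 to 0.58, Tgfbr3 to Tgfbr2 -0.22 to 0.85, Tgfbr1 to Tgfbr2 -1.27 to 0.0058, Smad7 to Smad4 -0.74 to 0.32, Smad3 to Smad2 -0.083 to 0.38 and Tgfb3 -0.18 to 1.07.
Same-numbered libraries did not deviate together (correlations -0.089 to 0.0090 by title number and -0.13 to 0.015 by library number). With the replicate block by library number Smad5 was -0.080, Fkbp1a -0.025 and Vim -0.085. Tgfbr3 was 0.83 (unadjusted p 0.0548, adjusted 0.865) with the replicate block by title and 0.96 (adjusted 0.634) by library number in edgeR's test. Depth limits Tgfb1 and Smad7.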
